A study of Mus musculus with 13 samples.

Results

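The genes described here are 10 mRNAs of the ATF4 branch of the integrated stress response: Atf4, Atf5, Chac1, Trib3, Asns, Psat1, Phgdh, Ppp1r15a, Ddit4 and Sesn2. They were chosen by symbol from the 54532 genes of the deposited mouse liver table, with earlier results of these data known. All 10 were found and passed the filter on low counts. The 13 RNA-seq libraries came from livers of wild-type C57 BL6 mice, 8 weeks old, that were taken 6 h after injection. In the pretreated group (n = 4) 16,16-dimethyl prostaglandin E2 (dmPGE2, a stable analogue of prostaglandin E2) was injected intraperitoneally at 300 µg/kg, 1 h ahead of D-galactosamine at 500 mg/kg and lipopolysaccharide at 5 µg/kg. The GalN/LPS group (n = 3) received D-galactosamine and lipopolysaccharide at the same doses without dmPGE2. The dmPGE2 group (n = 3) received dmPGE2 alone at the same dose. The labels give 6 h for it too, but do not state whether these 6 h run from the dmPGE2 injection. The saline group (n = 3) received saline. D-galactosamine with lipopolysaccharide is a model of acute liver failure in which galactosamine depletes the uridine nucleotides of hepatocytes and blocks their transcription. The labels do not say that each library is its own animal, so p-values measure the spread between these libraries, which may be technical.

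In the integrated stress response, kinases that sense amino acid shortage, misfolded protein, double-stranded RNA or haem shortage phosphorylate the translation factor eIF2. General translation then slows, while mRNAs with short upstream reading frames, Atf4 and Atf5 among them, are translated better. The ATF4 protein binds C/EBP-ATF composite elements, usually as a dimer with another bZIP factor, and turns on genes of amino acid synthesis and uptake, of growth control and of feedback on eIF2. Much of the control of ATF4 is on translation, and these libraries measured mRNA alone.

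Promoter sequence was searched because the members are grouped by this factor. RefSeq windows (GRCm38.p6) of 250 bases before and 50 bases from the annotated start were available for all 10 members. They made 12 windows in all, since Atf5 and Psat1 had more than 1. Those of Psat1 and 1 of Atf5 lie inside the gene as the deposited table places it. Distances below are from the RefSeq start. By the deposited gene bounds the Asns match lies inside the gene and the Trib3 match lies before its start. The composite element, searched as TGATGNAA on both strands, was found in 3 of the 10 members (Asns, Chac1 and Trib3) and in 4.51% of the 27025 genes with a window. Its form TGATGCAA, which is a subset of TGATGNAA, was found in Chac1 and in 1.03% of genes. The cAMP response element TGACGTCA was found in Ppp1r15a and in 2.03% of genes, and TGACGCAA in Chac1 and in 0.562% of genes. These matches describe letters and not bound sites. The stretches around them are shown 5′ to 3′ on the strand of the gene, with each match in capitals.
Asns (chr6:7693210-7693262, minus strand, match 23 to 16 bases before the start): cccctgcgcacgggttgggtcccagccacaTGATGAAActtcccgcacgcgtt
Chac1 (chr2:119350992-119351086, plus strand, TGACGCAA at the outer edge of the window, and the composite element read on the opposite strand 193 to 186 bases before the start): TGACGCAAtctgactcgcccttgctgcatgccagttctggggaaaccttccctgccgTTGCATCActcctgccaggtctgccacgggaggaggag
Trib3 (chr2:152344028-152344057, minus strand, composite element read on the opposite strand, 14 to 21 bases after the start): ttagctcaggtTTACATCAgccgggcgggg
Ppp1r15a (chr7:45526269-45526310, minus strand, match 12 to 5 bases before the start): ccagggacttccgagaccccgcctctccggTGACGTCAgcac

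Library totals ranged from 14829838 to 20777809 counts, and 14280 genes were tested. The TMM scaling factors, which correct for the share of a library taken by a few abundant mRNAs, differed between groups: 0.683 to 0.830 in pretreated, 0.904 to 1.14 in GalN/LPS, 1.16 to 1.28 in dmPGE2 and 1.17 to 1.18 in saline libraries. With library totals in place of TMM the median log2 fold change of all genes moved from -0.10 to -0.61 in pretreated against GalN/LPS livers, and from 0.02 to -0.15 in GalN/LPS against saline livers. That median moved from 0.14 to -0.54 in pretreated against saline livers, and from -0.11 to -0.69 in the interaction of dmPGE2 and GalN/LPS. In pretreated against GalN/LPS livers 618 genes were then higher and 6799 lower. Values and counts given below with library totals are to be read beside these shifts of all genes. Where library totals changed a member's call or direction, both values are given. Markers of 7 hepatocyte, 9 Kupffer cell, 8 neutrophil and 7 sinusoidal endothelium genes were all detected in GalN/LPS livers. The summed neutrophil markers stood at 264 to 418 CPM in pretreated, 681 to 903 CPM in GalN/LPS, 5.18 to 8.81 CPM in dmPGE2 and 4.38 to 16.1 CPM in saline livers, and Ly6g had no count in dmPGE2 livers. The Kupffer cell sum was 347 to 554 CPM in pretreated, 738 to 1149 CPM in GalN/LPS, 231 to 313 CPM in dmPGE2 and 185 to 234 CPM in saline livers. In bulk tissue, fewer cells of a type and less RNA per cell cannot be told apart.

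The 10 mRNAs covered a wide range of levels, from Phgdh at a mean of 0.0710 FPKM to Atf5 at 70.6 FPKM, both in saline livers (FPKM divides the fragments of a gene by its length and by a value per library, so levels of different genes can be set side by side). Atf5 was the highest and Atf4 the second highest in each of the 4 groups. The third place went to Ddit4 in pretreated, dmPGE2 and saline livers and to Ppp1r15a in GalN/LPS livers, and Ddit4 overlapped Atf4 in pretreated livers. The enzymes Phgdh and Psat1 held places 7 to 10 in every group, and Phgdh had 30 counts over the 4 pretreated, 106 over the 3 GalN/LPS, 12 over the 3 dmPGE2 and 11 over the 3 saline libraries. Precision for these low mRNAs is limited by counting.

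**Figure D1:**
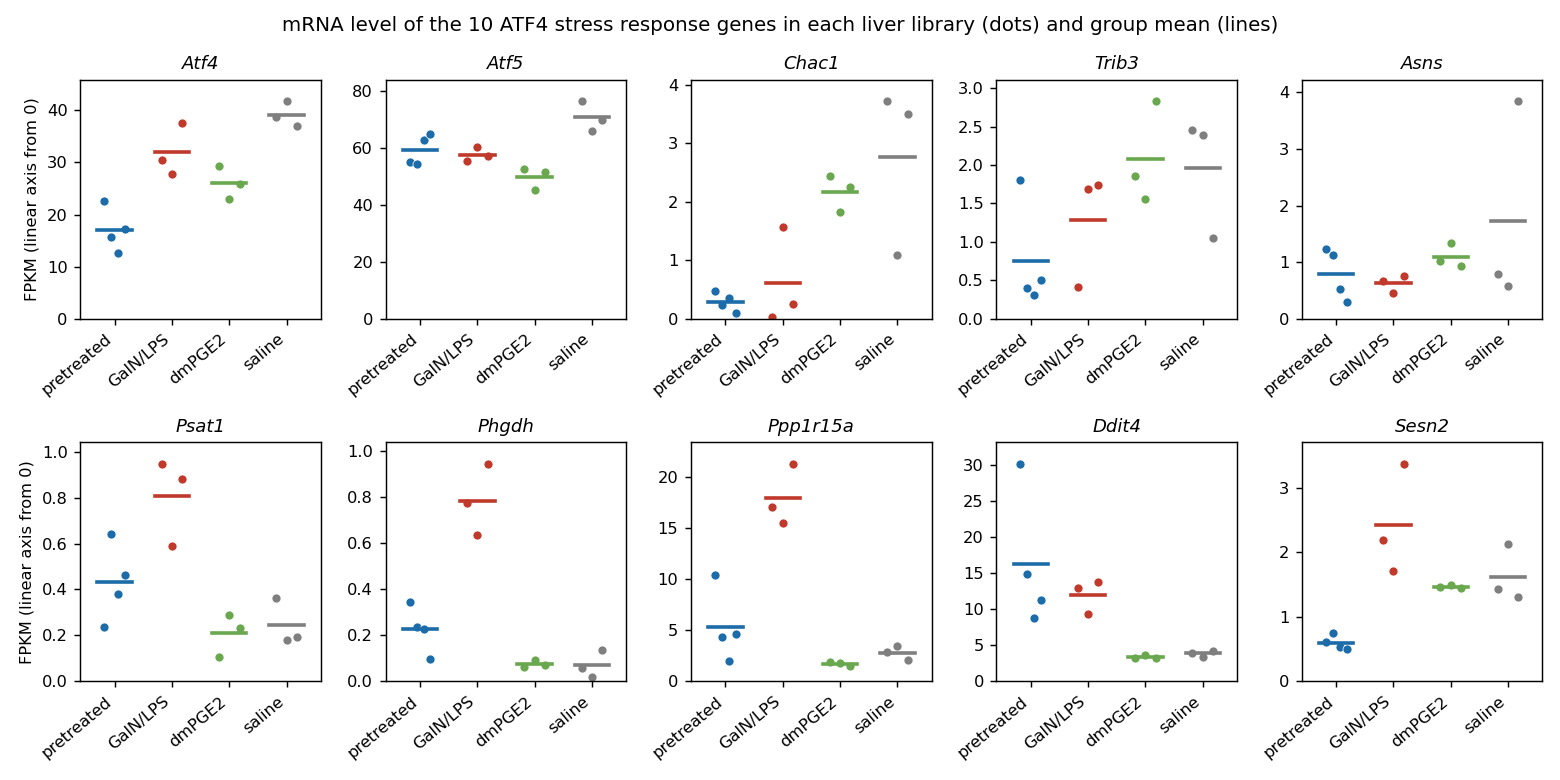
FPKM on the y axis (linear, from 0) of each of the 10 mRNAs in pretreated, GalN/LPS, dmPGE2 and saline livers on the x axis, with a dot for each library and a line at the group mean. Ppp1r15a and Phgdh show a GalN/LPS group above all other libraries, Sesn2 a pretreated group below all other libraries, and Asns a single saline library at 3.84 FPKM above the rest.

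Atf4 encodes the central transcription factor of the response (ENSMUSG00000042406, chromosome 15, 80255184 to 80257541, plus strand, GRCm38/mm10 as in the deposited table). Its mRNA stood at 22.6, 15.7, 12.7 and 17.3 FPKM in pretreated livers, at 30.5, 27.9 and 37.6 FPKM in GalN/LPS livers, at 29.3, 23.0 and 25.9 FPKM in dmPGE2 livers and at 38.6, 41.7 and 37.1 FPKM in saline livers. In FPKM the pretreated group lay below all other libraries, but in CPM pretreated 1 (54.09) stood just above dmPGE2 2 (53.99). The dmPGE2 and GalN/LPS groups overlapped, and 1 GalN/LPS library reached into the saline range. Atf4 fell in pretreated against GalN/LPS livers (log2 fold change -0.85 ± 0.16, SE, adjusted p = 0.000567, edgeR's quasi-likelihood test with Benjamini-Hochberg adjustment over all genes). It also fell in pretreated against saline livers (-1.13 ± 0.16, adjusted p = 1.72e-05). The difference between GalN/LPS and saline livers did not pass (-0.28 ± 0.17, adjusted p = 0.18), nor did that between dmPGE2 and saline livers (-0.58 ± 0.17, adjusted p = 0.166), although the libraries of dmPGE2 and saline did not overlap. Without GalN/LPS 3, the highest library of its group, the value of GalN/LPS against saline was -0.52 and passed (adjusted p = 0.0349), and it was -0.42 and passed without a filter on low counts (adjusted p = 0.0435). With each library left out in turn it ranged from -0.52 to -0.22. The interaction did not pass (-0.27 ± 0.23, adjusted p = 0.387), but did with library totals (-0.86, adjusted p = 0.0201).

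Atf5, a related bZIP factor whose translation is controlled in a like manner (ENSMUSG00000038539, chromosome 7, 44812256 to 44816658, minus strand), had the smallest spread over the 13 libraries of the 10 members (SD of log2 CPM 0.20). It stood at 55.0, 54.3, 62.9 and 64.8 FPKM in pretreated, 55.5, 60.1 and 57.0 FPKM in GalN/LPS, 52.5, 45.3 and 51.5 FPKM in dmPGE2 and 76.2, 66.0 and 69.5 FPKM in saline livers. Saline livers were the highest and dmPGE2 livers the lowest, and neither overlapped GalN/LPS livers, while in FPKM the pretreated range enclosed that of GalN/LPS. In CPM pretreated livers (111 to 134) overlapped GalN/LPS livers (106 to 124) without enclosing them, and overlapped saline livers (129 to 149). With TMM scaling no pairwise comparison passed edgeR's test, with log2 fold changes of -0.28 ± 0.12 for GalN/LPS against saline (adjusted p = 0.0687), 0.10 ± 0.12 for pretreated against GalN/LPS (adjusted p = 0.495), -0.18 ± 0.12 for pretreated against saline (adjusted p = 0.175) and -0.50 ± 0.12 for dmPGE2 against saline (adjusted p = 0.103). DESeq2 called the last of these (-0.51, adjusted p = 0.00396), GalN/LPS against saline (-0.29, adjusted p = 0.0292) and pretreated against saline (-0.24, adjusted p = 0.0411). The interaction, which is the change with dmPGE2 in GalN/LPS-treated livers less the change with dmPGE2 in livers without GalN/LPS, was 0.60 ± 0.17 (adjusted p = 0.0156). It takes no account of the time after dmPGE2, which may differ between these groups. With library totals the interaction was 0.015 (adjusted p = 0.956), and Atf5 fell by 0.41 in pretreated against GalN/LPS (adjusted p = 0.00755), by 0.46 in GalN/LPS against saline (adjusted p = 0.00603) and by 0.87 in pretreated against saline livers (adjusted p = 8.07e-06). The interaction was also lost with a replicate block (0.55, adjusted p = 0.0541) and without a filter on low counts (0.54, adjusted p = 0.0985). Atf5 overlaps Nup62 on the opposite strand by 571 bases, but Nup62 held 2184 counts over all libraries, against 27746 for Atf5.

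Ppp1r15a, Ddit4 and Sesn2 are members that feed back on eIF2 or restrain growth. Ppp1r15a (ENSMUSG00000040435, chromosome 7, 45522916 to 45526268, minus strand) encodes GADD34, the inducible partner that directs protein phosphatase 1 to eIF2. Its mRNA stood at 10.4, 4.36, 2.01 and 4.68 FPKM in pretreated livers, at 17.1, 15.5 and 21.3 FPKM in GalN/LPS livers, at 1.86, 1.77 and 1.52 FPKM in dmPGE2 livers and at 2.83, 3.44 and 2.09 FPKM in saline livers. GalN/LPS livers lay above all others, and the lowest pretreated liver lay below the saline range. It rose in GalN/LPS against saline livers (log2 fold change 2.70 ± 0.38, adjusted p = 2.17e-05) and fell in pretreated against GalN/LPS livers (-1.69 ± 0.34, adjusted p = 0.000803). The excess of pretreated over saline livers (1.01 ± 0.36, adjusted p = 0.0213) was lost without pretreated 1 (0.49, adjusted p = 0.11), without saline 1 (1.02, adjusted p = 0.0507), without saline 3 (0.85, adjusted p = 0.0821) and with library totals (0.32, adjusted p = 0.471). The dmPGE2 libraries lay below the saline ones, but the difference did not pass (-0.69 ± 0.39, adjusted p = 0.442), except without a filter on low counts (-0.66, adjusted p = 0.0415). The interaction was -0.996 ± 0.512 (adjusted p = 0.138), and passed with library totals (-1.59, adjusted p = 0.028) and without the filter (-1.05, adjusted p = 0.000767).

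Ddit4, also called REDD1 (ENSMUSG00000020108, chromosome 10, 59949669 to 59951834, minus strand), restrains the growth kinase mTORC1. Its level was 30.1, 14.9, 8.81 and 11.2 FPKM in pretreated livers, 12.9, 9.38 and 13.8 FPKM in GalN/LPS livers, 3.22, 3.62 and 3.30 FPKM in dmPGE2 livers and 3.97, 3.45 and 4.22 FPKM in saline livers. The 7 libraries that received GalN/LPS all lay above the 6 that did not, while pretreated and GalN/LPS livers overlapped. Ddit4 rose in GalN/LPS against saline livers (1.64 ± 0.33, adjusted p = 0.000526) and in pretreated against saline livers (2.13 ± 0.32, adjusted p = 2.72e-05). Pretreated against GalN/LPS livers gave 0.49 ± 0.29 (adjusted p = 0.166). That value was -0.034 with library totals, and it passed without pretreated 3 (0.70, adjusted p = 0.0389) and without a filter on low counts (0.47, adjusted p = 0.0277). With each library left out in turn it ranged from 0.03 to 0.70.

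Sesn2 (ENSMUSG00000028893, chromosome 4, 132492032 to 132510501, minus strand) encodes sestrin 2, which senses leucine and likewise restrains mTORC1. It stood at 0.607, 0.748, 0.536 and 0.494 FPKM in pretreated livers, at 2.19, 1.70 and 3.36 FPKM in GalN/LPS livers, at 1.47, 1.49 and 1.44 FPKM in dmPGE2 livers and at 1.43, 2.12 and 1.31 FPKM in saline livers. Every pretreated library lay below every library of the other groups. The mRNA fell in pretreated against GalN/LPS livers (-1.95 ± 0.25, adjusted p = 3.6e-05), which is a 3.85-fold lower level, and in pretreated against saline livers (-1.36 ± 0.25, adjusted p = 0.000234). GalN/LPS against saline livers gave 0.59 ± 0.25 and missed the threshold (adjusted p = 0.0555), with overlapping libraries. The value passed without GalN/LPS 2 (0.76, adjusted p = 0.0218) or saline 2 (0.81, adjusted p = 0.0197), but was 0.44 with library totals (adjusted p = 0.224). With each library left out in turn it ranged from 0.17 to 0.81. The interaction was -1.81 ± 0.36 (adjusted p = 0.00242), and dmPGE2 against saline livers gave -0.13 ± 0.25 (adjusted p = 0.852). With library totals the interaction was -2.40 (adjusted p = 0.000731).

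The serine synthesis enzymes were scarce in uninjured (dmPGE2 and saline) livers. Phgdh (ENSMUSG00000053398, chromosome 3, 98313170 to 98339990, minus strand), which catalyses the first step from 3-phosphoglycerate, stood at 0.346, 0.235, 0.228 and 0.0986 FPKM in pretreated livers, at 0.776, 0.638 and 0.944 FPKM in GalN/LPS livers, at 0.0607, 0.0938 and 0.0696 FPKM in dmPGE2 livers and at 0.0564, 0.0205 and 0.136 FPKM in saline livers. GalN/LPS livers lay above all others, and the lowest pretreated library lay within the saline range. Phgdh rose in GalN/LPS against saline livers (3.42 ± 0.52, adjusted p = 4.93e-05) on few counts, and the value was 4.24 without saline 3. It fell in pretreated against GalN/LPS livers (-1.72 ± 0.43, adjusted p = 0.004). Pretreated livers were higher than saline livers (1.70 ± 0.56, adjusted p = 0.0144), a call lost with library totals (1.04, adjusted p = 0.135) and without saline 1 (1.55, adjusted p = 0.0541) or saline 2 (1.29, adjusted p = 0.0644), and 2.54 without saline 3. The interaction was -1.75 ± 0.80 (adjusted p = 0.0996), and passed with library totals (-2.33, adjusted p = 0.0364).

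Psat1 (ENSMUSG00000024640, chromosome 19, 15904678 to 15947337, minus strand), the transaminase of the next step, stood at 0.239, 0.642, 0.381 and 0.461 FPKM in pretreated livers, at 0.945, 0.588 and 0.883 FPKM in GalN/LPS livers, at 0.106, 0.288 and 0.234 FPKM in dmPGE2 livers and at 0.362, 0.179 and 0.193 FPKM in saline livers. GalN/LPS livers did not overlap dmPGE2 or saline livers, and pretreated livers spanned the gap. It rose in GalN/LPS against saline livers (1.71 ± 0.41, adjusted p = 0.00224). Pretreated against GalN/LPS livers gave -0.82 ± 0.37, which did not pass (adjusted p = 0.0705). It did without pretreated 2 (-1.11, adjusted p = 0.0277), with library totals (-1.33, adjusted p = 0.0117) and without a filter on low counts (-0.85, adjusted p = 0.0452). With each library left out in turn the value ranged from -1.11 to -0.62. Pretreated against saline livers gave 0.89 ± 0.40 (adjusted p = 0.0643).

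Asns (ENSMUSG00000029752, chromosome 6, 7675169 to 7693254, minus strand) encodes asparagine synthetase, and its promoter stretch with the composite element is shown above. Its level was 1.23, 1.12, 0.533 and 0.299 FPKM in pretreated livers, 0.665, 0.446 and 0.763 FPKM in GalN/LPS livers, 1.02, 1.34 and 0.933 FPKM in dmPGE2 livers and 0.786, 0.576 and 3.84 FPKM in saline livers. All groups overlapped but for dmPGE2 and GalN/LPS, and saline 3 stood far above every other library, so that the saline mean was 1.73 ± 1.83 FPKM (SD, n = 3). GalN/LPS against saline livers gave -1.46 ± 0.60 (adjusted p = 0.0504), which passed with DESeq2 (-1.46, adjusted p = 0.0268), with library totals (-1.61, adjusted p = 0.0416) and without a filter on low counts (-1.60, adjusted p = 2.57e-06) but was -0.12 without saline 3. Pretreated against saline livers gave -1.05 ± 0.55 (adjusted p = 0.106), which passed with library totals (-1.69, adjusted p = 0.0181) and without the filter (-1.20, adjusted p = 0.000146) but was 0.31 without saline 3. Pretreated against GalN/LPS livers gave 0.42 ± 0.60 (adjusted p = 0.575), and -0.086 with library totals.

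Chac1 (ENSMUSG00000027313, chromosome 2, 119351229 to 119354381, plus strand), which degrades glutathione and whose window held the composite element and TGACGCAA, stood at 0.477, 0.238, 0.346 and 0.0999 FPKM in pretreated livers, at 0.0337, 1.56 and 0.255 FPKM in GalN/LPS livers, at 2.44, 1.82 and 2.25 FPKM in dmPGE2 livers and at 3.71, 1.09 and 3.49 FPKM in saline livers. The pretreated libraries all lay below the uninjured ones, and of the GalN/LPS libraries only GalN/LPS 2 reached the saline range. Chac1 fell in pretreated against saline livers (-3.17 ± 0.72, adjusted p = 0.00113) and in GalN/LPS against saline livers (-2.16 ± 0.69, adjusted p = 0.0155). The call against saline livers in the GalN/LPS group was lost without GalN/LPS 3 (-1.88, adjusted p = 0.0532) or saline 1 (-1.91, adjusted p = 0.0535), and its value was -4.22 without GalN/LPS 2. Pretreated against GalN/LPS livers gave -1.01 ± 0.82 (adjusted p = 0.312), and 1.05 without GalN/LPS 2.

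Trib3 (ENSMUSG00000032715, chromosome 2, 152337422 to 152344032, minus strand) encodes a pseudokinase that binds ATF4 and dampens its activity. It stood at 1.8, 0.398, 0.305 and 0.50 FPKM in pretreated livers, at 0.415, 1.69 and 1.74 FPKM in GalN/LPS livers, at 1.86, 1.56 and 2.83 FPKM in dmPGE2 livers and at 2.46, 2.39 and 1.05 FPKM in saline livers. Pretreated 1 stood apart from the other 3 pretreated libraries, within the range of the other groups. Trib3 fell in pretreated against saline livers (-1.33 ± 0.54, adjusted p = 0.0424), and the value was -2.21 without pretreated 1 (adjusted p = 0.00162). That call was lost without any one of pretreated 2, 3 or 4, dmPGE2 1 or 2, or saline 1 or 2, with values of -1.32 to -1.08 and adjusted p of 0.0502 to 0.128. Against GalN/LPS livers, pretreated livers gave -0.74 ± 0.56 (adjusted p = 0.28), which passed without pretreated 1 (-1.61, adjusted p = 0.0198) and without a filter on low counts (-0.76, adjusted p = 0.0463). With each library left out in turn it ranged from -1.61 to -0.45. GalN/LPS against saline livers gave -0.59 ± 0.55 (adjusted p = 0.385), and passed without the filter (-0.73, adjusted p = 0.0466). Across the members, pretreated 1 held the highest level of its group in 7 of 10, against 27.9% of all genes tested.

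Counted over the 10 members, GalN/LPS against saline livers had 4 higher (Phgdh, Ppp1r15a, Psat1 and Ddit4), 1 lower (Chac1) and 5 not past the test, where 27.4% of all genes tested were higher and 25.6% lower. The median log2 fold change was 0.15 over the members and 0.02 over all genes. With library totals 3064 genes were higher and 4281 lower in place of 3906 and 3649, and 4 members were higher and 3 lower. Pretreated against GalN/LPS livers had none higher, 4 lower (Sesn2, Atf4, Ppp1r15a and Phgdh) and 6 not past edgeR's test, against 24.4% of all genes higher and 30.1% lower, with medians of -0.84 and -0.10. At an unadjusted p under 0.05 there were 5 of 10 members, all lower, and 8588 of 14280 genes. DESeq2 called 5 members, all lower, and 3212 genes higher and 4602 lower. Psat1 was the member added in each. The 4 that edgeR called kept their direction and call with library totals (-2.46 for Sesn2, -1.37 for Atf4, -2.21 for Ppp1r15a and -2.23 for Phgdh), where 618 genes of the table were higher and 6799 lower in place of 3481 and 4299. The 4 of 10 members that were lower were near the 30.1% of all genes. Both comparisons use the same GalN/LPS libraries, and those against saline the same saline libraries.

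In pretreated against saline livers 3 members were higher (Ddit4, Phgdh and Ppp1r15a), 4 lower (Atf4, Sesn2, Chac1 and Trib3) and 3 not past the test, against 34.8% of all genes higher and 30.2% lower, with medians of -0.62 and 0.14. With library totals 1 member (Ddit4) was higher and 6 lower, and 1686 genes were higher and 6803 lower in place of 4969 and 4313. In dmPGE2 against saline livers edgeR called none of the 10 members, and 0% of all genes in either direction. The members' log2 fold changes there lay between -0.69 (Ppp1r15a) and 0.09 (Trib3), with a median of -0.30 against 0.02 over all genes. At an unadjusted p under 0.05 it gave 2 members (Atf4 and Atf5) and 1990 genes, and DESeq2 called 1 member (Atf5), 137 genes higher and 140 lower. Without a filter on low counts edgeR called 1 member (Ppp1r15a), 290 genes higher and 171 lower. The interaction was higher for 1 member (Atf5) and lower for 1 (Sesn2), against 15.4% of all genes higher and 19.6% lower, with medians of -0.61 and -0.11. With library totals 4 members were lower (Sesn2, Atf4, Ppp1r15a and Phgdh) and none higher, as were 5205 and 183 genes of the table in place of 2797 and 2202.

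**Figure D2:**
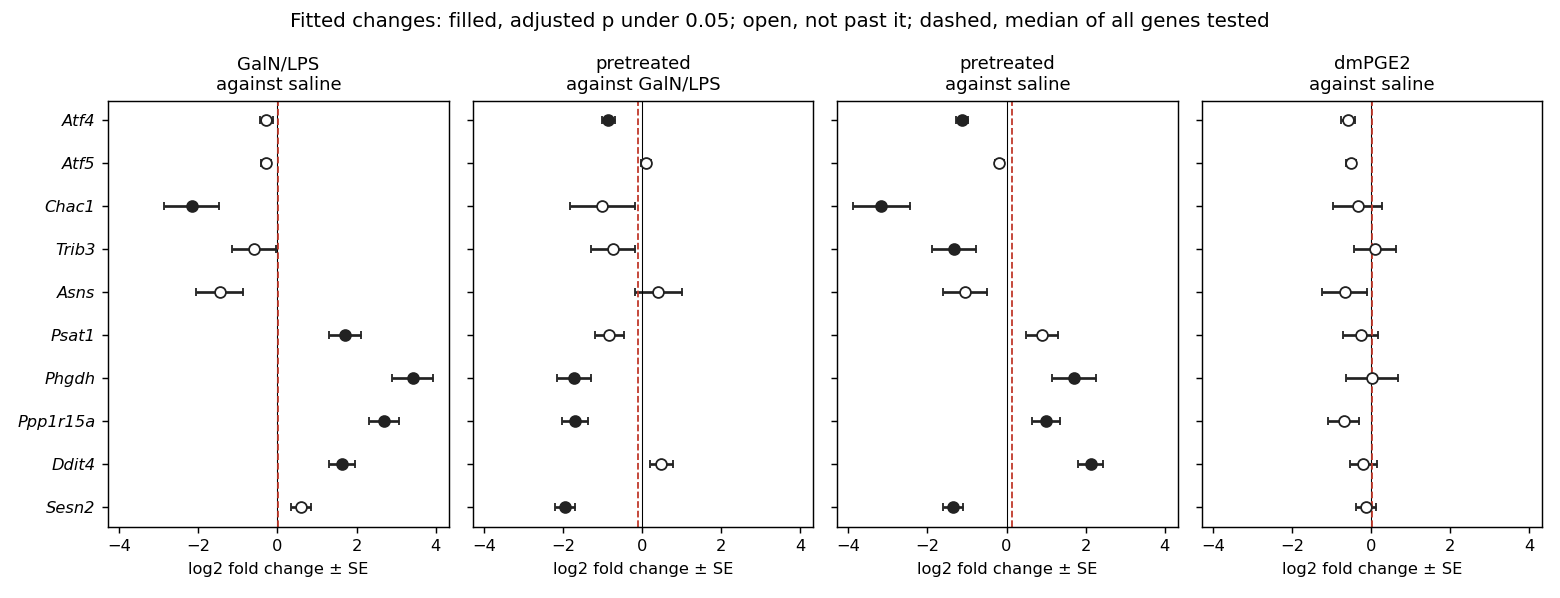
Fitted log2 fold change with its standard error (x axis) of each member (y axis) in 4 comparisons, filled where the adjusted p was under 0.05 and open where it was not, with a dashed line at the median of all genes tested. In pretreated against GalN/LPS livers the 4 filled points (Atf4, Phgdh, Ppp1r15a and Sesn2) lie between -1.95 and -0.85, and in dmPGE2 against saline livers no point is filled.

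Cell type markers moved alongside these changes. Of all genes tested, 27.4% were higher and 25.6% lower in GalN/LPS against saline livers, and 24.4% and 30.1% in pretreated against GalN/LPS livers. In GalN/LPS against saline livers 8 of 8 neutrophil, 8 of 9 Kupffer cell, 5 of 5 monocyte and 7 of 7 sinusoidal endothelium markers rose, as did Phgdh, Ppp1r15a, Psat1 and Ddit4. So did 5 of 6 stellate cell, 5 of 6 T and NK cell, 2 of 4 B cell, 4 of 4 cholangiocyte and 3 of 3 erythroid markers. Of 7 hepatocyte markers 1 fell and 6 did not pass there. In pretreated against GalN/LPS livers 8 of 8 neutrophil, 9 of 9 Kupffer cell, 3 of 5 monocyte and 7 of 7 endothelium markers fell and 7 of 7 hepatocyte markers rose, while Sesn2, Atf4, Ppp1r15a and Phgdh fell. There 5 of 6 stellate cell, 4 of 6 T and NK cell, 4 of 4 B cell and 3 of 4 cholangiocyte markers fell as well. Of 3 erythroid markers 1 rose and 2 fell. The monocyte sum was 51.6 to 122 CPM in pretreated, 145 to 243 CPM in GalN/LPS, 7.76 to 9.63 CPM in dmPGE2 and 5.97 to 9.02 CPM in saline livers, and that of endothelium was 118 to 243 CPM in pretreated, 439 to 525 CPM in GalN/LPS, 68.7 to 95.3 CPM in dmPGE2 and 63.1 to 69.4 CPM in saline livers. Hepatocyte markers summed to 130440 to 207371 CPM in pretreated, 86286 to 122607 CPM in GalN/LPS, 61802 to 68814 CPM in dmPGE2 and 81740 to 97509 CPM in saline livers. The part of cell composition in the members' changes was not tested.

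Further bZIP factors and cofactors of the response formed a list of 6. In GalN/LPS against saline livers 4 of 6 rose and 1 fell, against 27.4% and 25.6% of all genes. In pretreated against GalN/LPS livers all 6 fell, also with library totals and with DESeq2 size factors, where 30.1% of all genes were lower with TMM. The median log2 fold changes of the list were 2.55 and -1.48, against 0.02 and -0.10 over all genes. Atf3, a stress-induced repressor, averaged 6.51 ± 6.12 CPM in pretreated, 52.9 ± 25.5 CPM in GalN/LPS, 0.601 ± 0.398 CPM in dmPGE2 and 0.816 ± 0.231 CPM in saline livers (SD). Its log2 fold change was 6.01 ± 0.65 in GalN/LPS against saline and -3.02 ± 0.48 in pretreated against GalN/LPS livers. Jdp2 (4.32 ± 0.44 and -1.84 ± 0.34), the small stress protein Nupr1 (3.61 ± 0.24 and -0.62 ± 0.18) and Ddit3, which encodes CHOP (1.49 ± 0.47 and -1.36 ± 0.44), rose and fell in these 2 comparisons. Cebpg, a frequent partner of ATF4, fell in both (-0.65 ± 0.13 and -0.90 ± 0.13), and Cebpb fell in the second (-1.60 ± 0.19).

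Of 13 eIF2 kinases and regulators, 2 rose and 7 fell in GalN/LPS against saline livers, against 27.4% and 25.6% of all genes. In pretreated against GalN/LPS livers 2 rose and 4 fell (none and 8 with library totals), against 24.4% and 30.1% of all genes. The medians of the list were -0.69 and 0.03. Eif2ak2, the double-stranded RNA sensor PKR, rose in GalN/LPS against saline livers (1.53 ± 0.17) and fell in pretreated against GalN/LPS livers (-0.71 ± 0.16). Eif2ak3, the endoplasmic reticulum kinase PERK, fell in GalN/LPS against saline livers (-1.65 ± 0.23), and its change in pretreated against GalN/LPS livers did not pass (-0.33 ± 0.23, adjusted p = 0.238). The kinase gene Eif2ak1 fell in GalN/LPS against saline livers (-0.97 ± 0.15). It rose in pretreated against GalN/LPS livers (0.48 ± 0.14), a call lost with library totals (-0.03, adjusted p = 0.914). Eif2b1 fell in GalN/LPS against saline livers (-1.21 ± 0.16). Eif2b4, a subunit of the exchange factor eIF2B, fell in both comparisons (-2.27 ± 0.17 and -0.41 ± 0.16). Nck1 fell in pretreated against GalN/LPS livers (-1.59 ± 0.20).

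Of 8 amino acid transporters tested, 5 rose and 1 fell in GalN/LPS against saline livers, against 27.4% and 25.6% of all genes. In pretreated against GalN/LPS livers 6 fell and 2 did not pass, against 24.4% of all genes higher and 30.1% lower. The counts were the same with library totals, and the medians of the list were 1.45 and -0.70. Slc7a11, the cystine transporter, had 454 counts over the GalN/LPS and none over the saline libraries, which puts it at least 175-fold higher when the saline group as a whole is set to 3 counts. It had 28 counts in pretreated livers and fell against GalN/LPS livers (-3.91 ± 0.41). Slc7a1, which carries cationic amino acids, rose in GalN/LPS against saline livers (4.98 ± 0.49) and fell in pretreated against GalN/LPS livers (-1.89 ± 0.36), as did Slc3a2, the heavy chain shared by several transporters (1.47 ± 0.15 and -0.68 ± 0.14).

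Beside Phgdh, Psat1 and Asns stood further enzymes of amino acid and one-carbon metabolism. Of 9 tested, 2 rose and 2 fell in GalN/LPS against saline livers, near the 27.4% and 25.6% of all genes. In pretreated against GalN/LPS livers 6 rose and 1 fell (4 and 2 with library totals), against 24.4% and 30.1% of all genes. The medians of the 9 were -0.03 and 0.92. Shmt2, the mitochondrial serine hydroxymethyltransferase, averaged 317 ± 13.7 CPM in pretreated, 168 ± 19.0 CPM in GalN/LPS, 162 ± 27.0 CPM in dmPGE2 and 178 ± 4.48 CPM in saline livers (SD). It rose in pretreated against GalN/LPS livers (0.92 ± 0.13, and 0.42 with library totals, adjusted p = 0.0196). Gpt2, an alanine transaminase, rose likewise (1.29 ± 0.15). In GalN/LPS against saline livers Gpt2 (-0.49 ± 0.15) and Psph (-0.49 ± 0.20) fell, and Mthfd2 rose (1.37 ± 0.32). Aldh18a1, which starts proline synthesis, rose in GalN/LPS against saline livers (2.13 ± 0.52) and fell in pretreated against GalN/LPS livers (-1.55 ± 0.47).

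Cytosolic tRNA synthetases, which ATF4 is known to induce, were mostly lower in GalN/LPS than in saline livers. Of 13 genes with the tRNA exporter Xpot, 1 rose and 9 fell in GalN/LPS against saline livers (1 and 11 with library totals). The shares of all genes were 27.4% and 25.6%. In pretreated against GalN/LPS livers 7 rose and 2 fell, against 24.4% and 30.1% of all genes. With library totals 2 rose and 4 fell, and 6 changed sign, where 618 of 14280 genes were higher and 6799 lower. The medians were -0.62 in GalN/LPS against saline livers and 0.43 in pretreated against GalN/LPS livers, the last against -0.10 over all genes. With library totals that last median was -0.08, against -0.61 over all genes. Wars, which is also induced by interferon, was the 1 gene that rose in GalN/LPS against saline livers (2.49 ± 0.17), and it fell in pretreated against GalN/LPS livers (-1.58 ± 0.15). Aars (-1.12 ± 0.13) and Yars (-1.15 ± 0.14) fell in GalN/LPS against saline livers. Lars (0.84 ± 0.12) and Eprs (0.91 ± 0.13) rose in pretreated against GalN/LPS livers, also with library totals (0.33 and 0.42).

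Of 4 genes for secreted products of the response 1 rose (Gdf15, 3.21 ± 0.56) and 1 fell (Inhbe, -5.03 ± 0.34) in GalN/LPS against saline livers. Over all genes 27.4% were higher and 25.6% lower there, and 24.4% and 30.1% in pretreated against GalN/LPS livers. Inhbe, a hepatocyte activin subunit, averaged 1.36 ± 0.380 CPM in pretreated, 2.28 ± 0.410 CPM in GalN/LPS, 73.3 ± 5.47 CPM in dmPGE2 and 74.5 ± 39.1 CPM in saline livers (SD). In pretreated against GalN/LPS livers Fgf21, a hepatic stress hormone, was the 1 gene that fell and 3 did not pass, while library totals gave 3 lower. The medians of the 4 were -0.18 in GalN/LPS against saline livers and -0.75 in pretreated against GalN/LPS livers. Fgf21 had no count in pretreated and 23 in GalN/LPS livers, at least 7.22-fold lower with the pretreated group as a whole set to 3 counts. Of 9 genes of growth control and autophagy, to be read beside the same shares of all genes, 2 rose and 5 fell in GalN/LPS against saline livers. Among those that fell were the autophagy receptors Nbr1 (-1.63 ± 0.13) and Sqstm1 (-1.43 ± 0.13). In pretreated against GalN/LPS livers 5 rose and 2 fell (2 and 3 with library totals), and the medians of the 9 were -0.61 in GalN/LPS against saline livers and 0.50 in pretreated against GalN/LPS livers. Among those that rose were Eif4ebp1, which binds the cap-binding factor eIF4E (0.83 ± 0.11), and Map1lc3b, the autophagosome protein LC3B (0.87 ± 0.13).

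**Figure D3:**
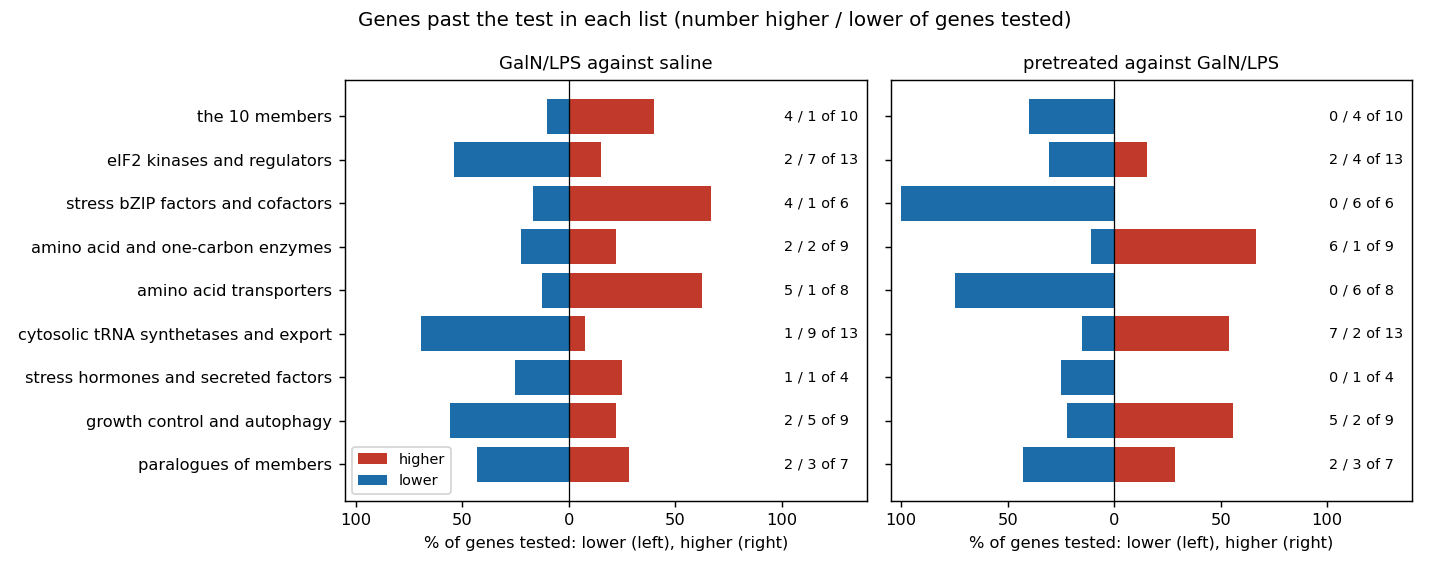
Percentage of the genes tested in each list (x axis) that were lower (left of 0, blue) or higher (right of 0, red) in GalN/LPS against saline livers and in pretreated against GalN/LPS livers, with TMM scaling and the counts printed beside the bars. Ppp1r15b is in both the eIF2 list and the list of relatives of members. All 6 bZIP factors and cofactors and 6 of 8 transporters fell in pretreated against GalN/LPS livers, while the 7 of 13 tRNA synthetase genes that rose there were 2 with library totals. Of all genes tested, 24.4% were higher and 30.1% lower there with TMM, and 618 and 6799 of 14280 genes with library totals. In GalN/LPS against saline livers 27.4% were higher and 25.6% lower with TMM.

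Of 7 relatives of the members by sequence, 2 rose and 3 fell in GalN/LPS against saline livers (1 and 3 with library totals), against 27.4% and 25.6% of all genes. In pretreated against GalN/LPS livers 2 rose and 3 fell (1 and 4 with library totals), against 24.4% and 30.1% of all genes. The medians of the list were -0.0064 and -1.28. Ppp1r15b was counted both here and among the eIF2 kinases and regulators. Ppp1r15b, the constitutive counterpart of Ppp1r15a, stood at 2.42, 2.77, 2.52 and 2.78 FPKM in pretreated livers, at 8.68, 5.70 and 7.94 FPKM in GalN/LPS livers, at 16.4, 16.6 and 16.9 FPKM in dmPGE2 livers and at 15.3, 20.1 and 16.2 FPKM in saline livers. It fell in GalN/LPS against saline livers (-1.20 ± 0.14, adjusted p = 3.72e-06) and again in pretreated against GalN/LPS livers (-1.44 ± 0.14, adjusted p = 3.26e-06), with no overlap. Ppp1r15a made up 62.4% ± 15 of the summed FPKM of both genes in pretreated, 70.7% ± 3.83 in GalN/LPS, 9.35% ± 0.997 in dmPGE2 and 13.9% ± 2.18 in saline livers (SD). The inducible gene was thus the more abundant of the pair in GalN/LPS livers and in 3 of the 4 pretreated livers, and the constitutive one in uninjured livers.

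Sesn2 made up 12.9% ± 1.96 of the summed sestrin FPKM in pretreated, 52.0% ± 10.2 in GalN/LPS, 26.4% ± 2.62 in dmPGE2 and 33.1% ± 9.45 in saline livers (SD). Sesn3 averaged 2.54 ± 0.477 FPKM in pretreated, 1.17 ± 0.127 FPKM in GalN/LPS, 1.52 ± 0.0464 FPKM in dmPGE2 and 1.18 ± 0.184 FPKM in saline livers (SD). It rose in pretreated against GalN/LPS livers (1.18 ± 0.16, adjusted p = 6.09e-05, and 0.70 with library totals), where Sesn2 fell. Sesn1 fell in GalN/LPS against saline livers (-1.09 ± 0.23, adjusted p = 0.000714) and rose in pretreated against GalN/LPS livers (0.65 ± 0.22, adjusted p = 0.0198), the last of these lost with library totals (0.15, adjusted p = 0.582). Trib2 rose in GalN/LPS against saline livers (3.43 ± 0.41) and fell in pretreated against GalN/LPS livers (-2.17 ± 0.35), while Trib3 passed in neither with the filter on low counts. Trib1 did the same (0.88 ± 0.33 and -2.28 ± 0.32), though its rise was lost with library totals (0.71, adjusted p = 0.0952). Chac2, which acts on glutathione as Chac1 does, fell in GalN/LPS against saline livers (-0.53 ± 0.19), and Ddit4l passed in neither.

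**Figure D4:**
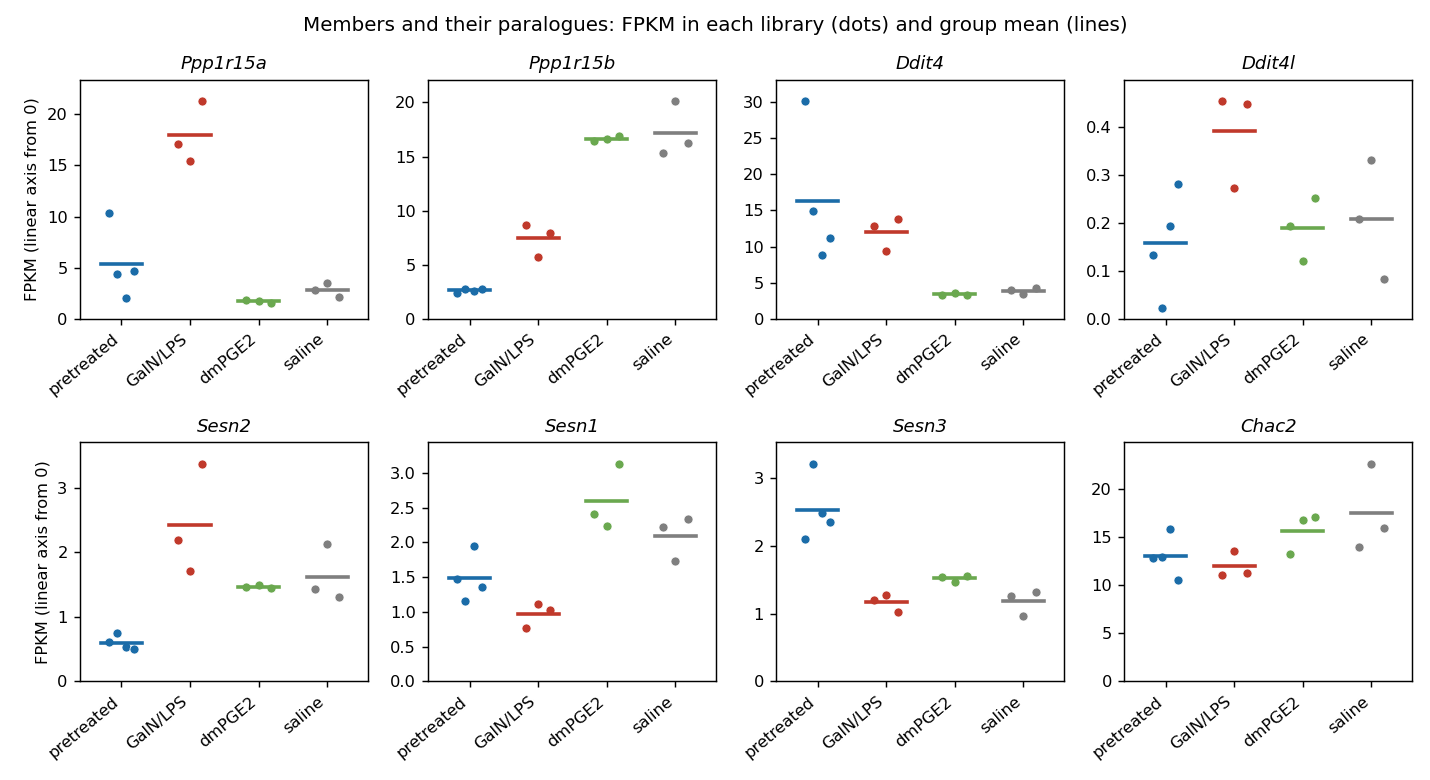
FPKM on the y axis (linear, from 0) of 3 members (Ppp1r15a, Ddit4 and Sesn2) and 5 relatives of members in each library (dots) with group means (lines), for pretreated, GalN/LPS, dmPGE2 and saline livers on the x axis. Ppp1r15b falls below all uninjured libraries in both GalN/LPS-treated groups while Ppp1r15a is highest in GalN/LPS livers, and in pretreated livers Sesn2 is lowest while Sesn3 is highest, with a mean of 2.54 FPKM.

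The genes with profiles most like each member were found by the root mean square distance of log2 CPM, each gene centred on its own mean over the 13 libraries, among the genes tested. For Atf4 these were Meaf6 (distance 0.20), Hnrnpa0 (0.21) and Utp11 (0.21). For Ppp1r15a they were Il21r (0.34), Plk2 (0.37) and Pim1 (0.37), for Phgdh they were Pla2g4a (0.28), Anxa3 (0.29) and Actg1 (0.31), and for Sesn2 they were Ctdp1 (0.23), Nol10 (0.25) and Pprc1 (0.25). The nearest other member was Sesn2 for Atf4 (0.47), which came at rank 1716 among all genes, and Phgdh for Ppp1r15a (0.70), at rank 342. Over the 10 members the rank of the nearest other member lay between 334 and 5235.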

How the data were processed

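The authors deposited read counts per Ensembl gene and FPKM for 13 libraries. The submitters' processing notes name HISAT2 and GRCm38/mm10; no source used here gives the counter, its strand setting or any version. The deposited FPKM equals count over gene length over 1 denominator per library, so FPKM alternatives are no independent check. Library preparation used the NEBNext Ultra RNA kit with 1 µg of total RNA per the labels. The columns named ALF were taken as GalN/LPS, since every other column name carried another group; the series text speaks of AILI mice, and the sample labels were followed.

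Counts were fitted with edgeR 4.0.16 in R 4.3.3 on all 13 libraries with group as the only term (filterByExpr, TMM, quasi-likelihood F test, two-sided, Benjamini-Hochberg threshold 0.05), in 5 comparisons. Levels in CPM are TMM-scaled. Alternatives used DESeq2 1.42.0, limma 3.58.1 on log2(FPKM + 1) or log2(FPKM + 0.1), other scalings, no filter, the compared groups alone, a replicate block and each library left out. Same-numbered libraries did not deviate together (r from -0.315 to 0.0873 over 18 pairs, none over 0.1), and none of the libraries were identical. Scripts were tested on simulated data. From each list up to 4 genes past the test with the smallest adjusted p were named for GalN/LPS against saline, and up to 4 for pretreated against GalN/LPS; Ddit3, Eif2ak3 and Ddit4l were added after their values were seen. The members and lists were chosen with earlier results of these data known.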

Additional observations from a re-analysis of the deposited data

Results flagged for a closer look

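Trib3 in pretreated 1 stood at 3.89 CPM, farther from the other 3 pretreated libraries (0.667 CPM at the lowest) than Dixon's critical value for 4 samples allows (ratio 0.866 against 0.829). Chance alone gives such a flag in about 1 of 20 groups. With all libraries Trib3 did not pass in pretreated against GalN/LPS livers (-0.74 ± 0.56, edgeR, adjusted p = 0.28). Leaving pretreated 1 out gave -1.61 (adjusted p = 0.0198). That library was picked for its high Trib3 value, so the lower value without it is no separate support for a fall.

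The change of Atf5 with dmPGE2 differed between livers with and without GalN/LPS, by an interaction of 0.60 ± 0.17 on the log2 scale (edgeR with TMM scaling, adjusted p = 0.0156). The interaction did not pass with library totals (0.015, adjusted p = 0.956), with a replicate block (0.55, adjusted p = 0.0541) or without a filter on low counts (0.54, adjusted p = 0.0985). With library totals its median over all genes was -0.69, and Atf5 less that median was 0.71. Atf5 averaged 122 ± 11.1 CPM in pretreated against 114 ± 8.91 CPM in GalN/LPS livers, and 98.0 ± 7.30 CPM in dmPGE2 against 138 ± 10.1 CPM in saline livers (SD).

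Sesn2 differed likewise, by -1.81 ± 0.36 (edgeR, adjusted p = 0.00242). It averaged 2.14 ± 0.421 CPM in pretreated against 8.30 ± 2.81 CPM in GalN/LPS livers, and 5.04 ± 0.137 CPM in dmPGE2 against 5.53 ± 1.47 CPM in saline livers (SD).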

How the results depend on the processing

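Of 1066 member values recomputed under the alternatives, 970 kept their direction and side of the threshold, 54 came to pass it, 26 no longer passed and 16 changed sign. Psat1, Phgdh, Ppp1r15a and Ddit4 in GalN/LPS against saline livers, and Sesn2, Atf4 and Ppp1r15a in pretreated against GalN/LPS livers, passed under every alternative that tested them, as did Phgdh in the second comparison. A mean FPKM of at least 0.5 left some low members untested. The number of members past the test rose without a filter on low counts, to 9 in GalN/LPS against saline livers, 7 in pretreated against GalN/LPS livers and 1 in dmPGE2 against saline livers, in place of 5, 4 and 0. The same fits called 3802 genes of the table higher and 4272 lower, 3062 higher and 4499 lower, and 290 higher and 171 lower. The 1 member in dmPGE2 against saline livers was Ppp1r15a without the filter, and DESeq2 also gave 1 there, Atf5. The interaction had 4 with library totals and 1 with a replicate block, in place of 2. Under the replicate block Atf5 was lost from the interaction (0.55, adjusted p = 0.0541) and Trib3 from pretreated against saline livers (-1.21, adjusted p = 0.124). Library totals turned pretreated against GalN/LPS livers to -0.41 for Atf5, -0.0858 for Asns and -0.0343 for Ddit4. The median of all genes was then -0.61, and less that median the values were 0.20, 0.52 and 0.57. Adjusted p for the Atf5 interaction ranged from 0.00364 to 0.956 over its alternatives. The cause of these shifts was not tested. Low counts limit Phgdh (11 to 106 per group), Psat1 (56 to 186) and Chac1 (25 to 283).

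With each library left out in turn, some values that did not pass changed sign. In pretreated against GalN/LPS livers Chac1 ranged from -1.58 to 1.05. In dmPGE2 against saline livers Asns ranged from -1.08 to 0.69, Trib3 from -0.20 to 0.29, Psat1 from -0.54 to 0.14, Phgdh from -0.38 to 0.87 and Sesn2 from -0.26 to 0.10. Asns ranged from -1.46 to 0.31 in pretreated against saline livers. The interaction ranged from -0.26 to 1.51 for Asns and from -1.24 to 1.39 for Chac1.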
